A study of Mus musculus with 4 samples.

Results

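Of 189598 peaks of open chromatin in mouse inguinal white adipose tissue, 509 were more open in beige than in white adipocytes. They were chosen from the pooled nuclei of each annotated cluster: a peak is a member if its level in the cluster Beige was at least 20 CPM (the peak's entries over all entries of the cluster, times 1000000) and at least 2 times its level in the cluster Adipocyte, called white adipocytes here. Every beige and white level given for the pooled clusters therefore describes the choice and was not tested. Of the 12238 peaks with at least 20 CPM in Beige, 4.16% were members. A further 9612 had at least 20 CPM in both adipocyte clusters and differed by less than 2 times in either direction. These are called peaks open in both clusters. The mirror rule, with white at least 2 times beige, gave 247 white-side peaks. At the edges of the rule, the lowest member ratio was 2.001 and the highest ratio just outside was 1.998, and the lowest member level was 20.19 CPM with 19.97 CPM just outside. A further 198 peaks of at least 20 CPM had a ratio from 1.8 to 2, and 170 peaks with a ratio of at least 2 had 18 to 20 CPM. With the mean over mice of each mouse's CPM in place of the pooled level, 657 peaks passed the rule, and 403 of the 509 members were among them.

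Single-nucleus ATAC-seq reads open chromatin by inserting adapters into accessible DNA, with barcodes that assign each read to a nucleus. The series holds 32552 nuclei from 21 mice, sequenced as a pool in 4 lanes, and the mouse, group and cluster of each nucleus were taken from the annotation deposited with the matrix. All mice were C57BL/6 males aged 8 weeks that had been kept at 22 °C and formed 7 groups of 3 mice: room temperature at the start (day0RT), cold at 6.5 °C by the sample labels (the methods of the study give another value) for 1, 3 or 7 days (day1C, day3C and day7C), and CL-316,243 (CL), a β3-adrenergic receptor agonist, at 1 mg/kg for 1, 3 or 7 days (day1CL, day3CL and day7CL). The cluster Beige held 1069 nuclei with 4557758 entries and the cluster Adipocyte 5935 nuclei with 24353694 entries. An entry is 1 nucleus with reads in 1 peak, since the matrix holds no value above 1. Of the 28031 barcodes, 4218 occurred in 2 or more mice.

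Beige adipocytes are thermogenic fat cells that arise within white fat during cold or β-adrenergic stimulation. Their mitochondria release heat through uncoupling protein 1 (Ucp1), fuelled by the oxidation of fatty acids. Regulatory DNA that is in use tends to lie in open chromatin, and nuclear receptors, among them the estrogen-related receptors (ERR) that work with the coactivators Pgc-1α and Pgc-1β, are known to act on mitochondrial and oxidative genes.

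Members held the ERR consensus TCAAGGTCA more often than other peaks did, and 6 of them are printed so that the match and the bases around it can be read. Of the 509 members, 42 (8.25%) held at least 1 match on either strand, with a 95% Wilson interval of 6.16% to 11%, which covers counting error only. The share was 0.81% in white-side peaks, 2.4% in peaks open in both clusters and 1.76% in all 31106 peaks of like length (624 to 987 bases, the interquartile range of the members). The 6 are among the members with a match that had the highest Beige levels. Each line gives the nearest gene, the window on mm10 (GRCm38) counted from 1, and the strand as read 5′ to 3′, with 30 bases on each side and the match in capitals.
Tob2, chr15:81845515-81845583, plus strand: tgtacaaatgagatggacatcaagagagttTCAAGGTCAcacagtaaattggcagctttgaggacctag
Rnf7, chr9:96437459-96437527, minus strand: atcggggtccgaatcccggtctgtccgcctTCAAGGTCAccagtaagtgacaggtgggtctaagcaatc
Ppp4r2, chr6:100802969-100803037, minus strand: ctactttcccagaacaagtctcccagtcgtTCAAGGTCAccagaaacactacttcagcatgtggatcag
Map3k1, chr13:111935978-111936046, plus strand: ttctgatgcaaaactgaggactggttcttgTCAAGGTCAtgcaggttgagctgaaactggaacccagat
Fabp3, chr4:130306811-130306879, minus strand: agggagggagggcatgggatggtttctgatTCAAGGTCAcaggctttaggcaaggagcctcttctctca
1600014C23Rik, chr17:45812952-45813020, minus strand: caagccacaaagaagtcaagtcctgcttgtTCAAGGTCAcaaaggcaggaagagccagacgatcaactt

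A member is also shown for 3 other consensus sequences that were more frequent in members than in white-side peaks, again one with a high Beige level. NR4A is a family of nuclear receptors induced by cAMP signals, MEF2 a family of muscle and mitochondrial regulators, and EBF a family with the brown fat factor Ebf2. The match is in capitals. The MEF2 match lay in the promoter peak of Cpt1b, which encodes the muscle form of the enzyme that moves fatty acids into mitochondria.
NR4A match, Slc4a4, chr5:89033287-89033354, plus strand: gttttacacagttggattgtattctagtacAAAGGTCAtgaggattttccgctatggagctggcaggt
MEF2 match, Cpt1b, chr15:89426049-89426118, plus strand: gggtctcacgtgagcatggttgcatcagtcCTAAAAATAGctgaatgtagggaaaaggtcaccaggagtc
EBF match, Eif5, chr12:111514551-111514620, plus strand: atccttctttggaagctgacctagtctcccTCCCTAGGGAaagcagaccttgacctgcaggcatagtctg

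The 5 members nearest to Ucp1 held 7 matches to AGGTCA, the core motif of many nuclear receptors, in total, and 3 of the 5 held at least 1. The middle of each of those 3 is printed in the direction of the gene, with core motifs in capitals: up to 300 bases, and for the third, which lies at the promoter, only the bases before the annotated gene start.
Ucp1, chr8:83284430-83284729, plus strand: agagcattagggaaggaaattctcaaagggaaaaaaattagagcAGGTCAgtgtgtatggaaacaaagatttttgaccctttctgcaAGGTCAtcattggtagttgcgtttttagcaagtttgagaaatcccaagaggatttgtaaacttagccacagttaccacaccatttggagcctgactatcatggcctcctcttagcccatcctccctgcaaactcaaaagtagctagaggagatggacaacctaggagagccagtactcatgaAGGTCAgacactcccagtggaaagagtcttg
Ucp1, chr8:83287736-83288035, plus strand: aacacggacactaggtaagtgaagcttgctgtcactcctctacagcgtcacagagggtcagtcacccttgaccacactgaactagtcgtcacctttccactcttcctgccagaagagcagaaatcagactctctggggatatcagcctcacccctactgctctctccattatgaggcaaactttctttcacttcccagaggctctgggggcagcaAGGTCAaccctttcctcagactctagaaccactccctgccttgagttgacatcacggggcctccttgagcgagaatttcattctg
Ucp1, chr8:83290147-83290351, plus strand: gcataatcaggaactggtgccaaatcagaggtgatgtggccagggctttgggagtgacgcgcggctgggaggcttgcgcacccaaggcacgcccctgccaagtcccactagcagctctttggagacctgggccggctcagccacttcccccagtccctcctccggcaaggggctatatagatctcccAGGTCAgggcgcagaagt

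Near Ucp1, the level in beige adipocytes was above that in white adipocytes at 15 of 15 peaks assigned to the gene, and 5 of the 15 were members. For these 5 the rule fixed the direction. The peaks 46059 and 38899 bases upstream were near the floor, each with 0.439 CPM in beige nuclei, against 0.246 and 0.328 CPM in white ones. The peak at the gene start (chr8:83290040-83290553, centre 56 bases upstream) had 28.5 CPM in beige nuclei, against 2.75 CPM in white ones. The other 4 members lay 2467, 4712, 5773 and 11752 bases upstream, with 24.4, 25.9, 25.5 and 34.2 CPM in beige nuclei, against 4.39, 2.63, 5.09 and 10.3 CPM in white ones. Of the peaks that were not members, the one 9818 bases downstream had 19.3 against 2.38 CPM and missed the level, and the one 19677 bases downstream had 20.8 against 19.4 CPM and missed the ratio. The core motifs fell as 5 in the member 5773 bases upstream, 1 in the member 2467 bases upstream and 1 at the gene start, while the members at 4712 and 11752 bases held none.

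**Figure D1:**
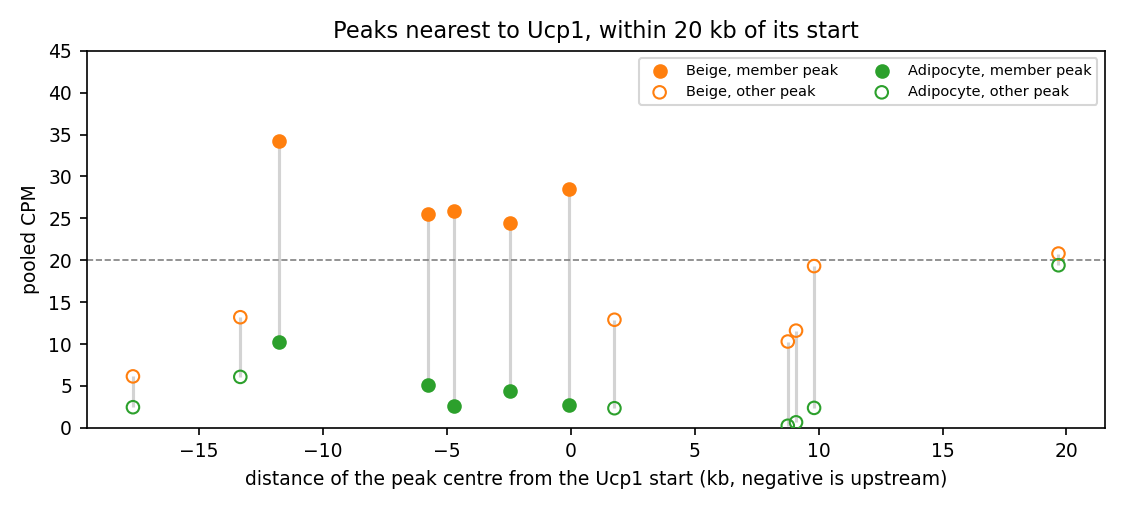
Pooled CPM in beige (orange) and white adipocytes (green, Adipocyte) of the peaks nearest to Ucp1 within 20 kb of its start, against distance from the start in kb. Filled points are members, open points other peaks, grey lines join the values of 1 peak, and the dashed line marks 20 CPM. The 5 members lie upstream or at the start, with 24.4 to 34.2 CPM in beige against 2.63 to 10.3 CPM in white adipocytes.

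Most members were moderately open peaks with a modest ratio. Beige levels ran from 20.2 to 59.5 CPM with a median of 25.2, and white levels from 2.14 to 26 CPM with a median of 10.1. The median ratio was 2.45, with 139 members from 2 to 2.2, 156 at 3 or above and 69 at 4 or above. In terms of nuclei, a member was open in 8.61% to 25.4% of beige nuclei (median 10.8%) and in 0.876% to 10.7% of white nuclei (median 4.13%).

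The most open member lay 1941 bases inside Otop1, a proton channel gene known from brown fat, at chr5:38277142-38278685, with 59.5 against 18.4 CPM. It was followed by members near Tob2 (58.1 against 25.2 CPM) and upstream of Ppargc1b (58.1 against 26 CPM), the gene of Pgc-1β. Among the 10 most open members were also those nearest to Arhgef37, Elovl6, Scnn1b, Slc4a4, Atp6v1c1 and Parn, with 46.7 to 52.9 CPM. Elovl6, which lengthens fatty acids, had its most open member in an intron at chr3:129591296-129592326, with 51.8 against 17.1 CPM. The largest ratios belonged to less open members. Among them were 12.9 near Mrps36 (27.6 against 2.14 CPM), 10.4 and 9.85 at Ucp1, 9.6 near Gm572, 8.29 near Pank1, 7.98 near Ets1, 7.68 near Gas1 and 7.59 at Perm1, a regulator of oxidative genes in muscle.

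By nearest protein-coding gene, the members belonged to 426 genes, of which 364 had 1 member, 62 had at least 2 and 14 at least 3. Rnf152, a ubiquitin ligase gene of the lysosome, had 6 members spread from 63 to 263704 bases from its start. Ucp1 had 5, and Ppargc1b and Slc4a4, a bicarbonate cotransporter gene, had 4 each. Adra1a (an adrenergic receptor), Coq8a (coenzyme Q synthesis), Elovl6, Hadhb (fatty acid oxidation), Pank1 (coenzyme A synthesis), Emx1, Kank1, Khdrbs3, Nol4l and Parn had 3 each. Peaks near 1 gene can be parts of 1 open region, and 14.3% of members had another member within 10 kb.

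The 10 gene lists differed in how many of their open beige peaks were members, beside 4.16% over all peaks of at least 20 CPM in Beige. No test was made of these shares, since the peaks were chosen by their levels. The lists were also chosen with earlier results of these data known. The study had already named Ucp1, Slc4a4, Pank1 and Ppargc1b, among others, as more accessible in beige adipocytes of this series. High shares in lists with such genes are therefore not independent evidence. In these lists a member at a gene is one nearest to the start of that gene, at any distance. Of the thermogenic core, 9 of 14 genes had a member, 18 members in all, or 31% of the list's open beige peaks. Beside Ucp1, Otop1 and Ppargc1b these were Dio2, which activates thyroid hormone (35.3 and 24.1 CPM in beige), Cox8b, a subunit of the respiratory chain (20.2 CPM), the potassium channel gene Kcnk3 (27.9 and 33.6 CPM), Slc27a2, a fatty acid transporter (23.9 CPM), Ppargc1a, the gene of Pgc-1α (27 CPM, 24161 bases upstream), and Ebf2 (41.2 CPM). Ebf2 was close to the edge of the rule, with a ratio of 2.01, and its member lay 182200 bases from the gene start. The Dio2 members lay up to 94311 bases from the start of that gene.

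Fatty acid uptake and oxidation had a member at 8 of 24 genes, 17 members or 21.5% of the list's open beige peaks. The largest ratio in the list was 8.29, at Pank1. The promoter of Cpt1b had 40.4 against 11.3 CPM. Fabp3, an intracellular carrier of fatty acids, had 2 members upstream with 31.2 and 34.4 CPM, the second of which holds an ERR match printed above. Acsl5, which activates fatty acids, had 1 member 1530 bases upstream and 1 in an intron, with ratios of 3.34 and 4.95. Hadha and Hadhb, the 2 subunits of the trifunctional oxidation enzyme, share a neighbourhood and had 5 members together with ratios from 2.06 to 2.8. Acaa2 and Acot11 had 2 members each.

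Ion transport, creatine and calcium cycling had 8 members at 4 of 16 genes, 40% of the list's open beige peaks, of which 4 were at Slc4a4, 2 at Kcnk3 (also in the thermogenic core) and 1 each at Atp2a2 and Ryr2, genes of calcium pumping and release. The tricarboxylic acid cycle and respiratory chain had 5 members at 3 of 18 genes, or 17.2%, among them Idh3a (33.6 and 22.8 CPM) and Suclg1 (40.4 and 33.3 CPM), enzymes of the cycle. Adrenergic and cAMP signalling had 6 members at 4 of 18 genes, or 13.6%, at Adrb1, Adra1a, Grk3 and Pde4d. The Pde4d member lay 828872 bases from the gene start. Glucose and pyruvate use had 4 members at 3 of 14 genes, or 8.33%, with Pdk4, the kinase that switches off pyruvate dehydrogenase, at 23.9 and 32.7 CPM, its counteracting phosphatase gene Pdp1 at 26.8 CPM and Hk2 at 34 CPM. The Pdp1 and Hk2 members lay 69951 and 79872 bases from the gene start.

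The remaining lists were close to the share over all peaks or held few members. Nuclear receptors and factors had 6 members at 5 of 29 genes (6.59%): 2 at Ppara, the receptor of fatty acid catabolism, and 1 each at Esrrg, Nfia, Nfib and Bhlhe40. Those of Nfia, Nfib and Bhlhe40 lay 221273, 620985 and 125931 bases from the gene start. Lipogenesis had 5 members at 3 of 22 genes (5.32%), of which 3 at Elovl6 and 1 each at Gk and Gpd2. Secreted factors had 1 member, at Bmp8b (4.76%). Lipolysis and lipid droplet had none at any of its 10 genes.

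Members lay mainly away from gene starts. Within 2000 bases of a start lay 45 members (8.84%), against 12.1% of white-side peaks, 55.1% of peaks open in both adipocyte clusters and 10.1% of all peaks. In introns lay 43.6%, in other exon sequence 5.11%, and between genes 42.4%. Some 33% were more than 50 kb from a start. The median length was 806 bases, against 1164 bases in peaks open in both clusters and 392 bases over all peaks, so the sets differ in how much sequence can hold a match.

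The core motif AGGTCA occurred in 381 members (74.9%), against 49.4% of white-side peaks, 52% of peaks open in both clusters and 44% of peaks of like length. The NR4A consensus AAAGGTCA occurred in 67 members (13.2%), against 5.67%, 6.62% and 5.66% in the same order. Both the ERR and the NR4A consensus contain the core motif, so the 3 counts overlap. In the central 500 bases of each peak, where the searched length is equal, the ERR share was 6.29% in members, 0.405% in white-side peaks and 0.718% in peaks open in both clusters. The MEF2 consensus occurred in 21 members (4.13%) and the EBF consensus in 44 (8.64%), against 2.04% and 3.58% of peaks of like length.

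The other consensus sequences differed little from peaks of like length or were more frequent in white-side peaks. The C/EBP consensus TTGCNNAA occurred in 38.7% of members and 55.1% of white-side peaks, and the glucocorticoid receptor consensus ACANNNTGT in 22.4% and 36.8%, against 37.6% and 24.7% of peaks of like length. The AP-1 consensus TGANTCA occurred in 25% of members and 24.1% of peaks of like length, and the cAMP response element TGACGTCA in 1.57% and 1.13%. A full PPAR direct repeat occurred in 2 members (0.393%). A match is a description of the letters in the peak and not a bound site. Members with an ERR match had a median ratio of 2.46, beside 2.44 without one.

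**Figure D2:**
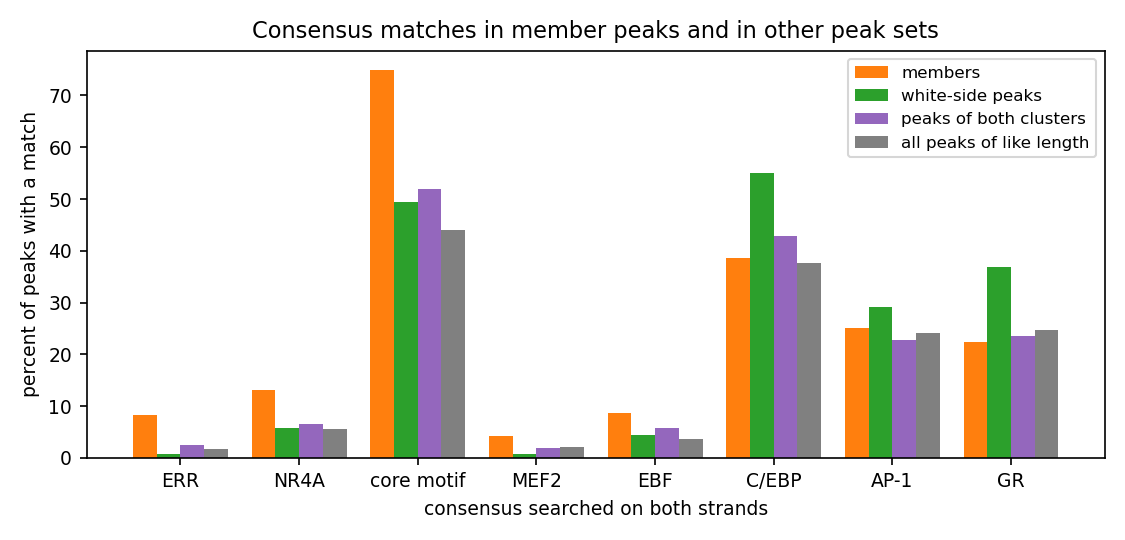
Percent of peaks with at least 1 consensus match on either strand, in the 509 members (orange), the 247 white-side peaks (green), the 9612 peaks open in both adipocyte clusters (purple) and the 31106 peaks of 624 to 987 bases (grey). The ERR, NR4A and core motif bars of the members stand above the other sets, at 8.25%, 13.2% and 74.9%, while the C/EBP, AP-1 and GR bars are tallest in white-side peaks.

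In the 10 clusters other than adipocytes, most members were nearly closed. Their median level was 2.59 CPM in APC1 and 2.69 CPM in APC2 (both labelled as adipocyte progenitors), 3.26 CPM in VEC (vascular endothelial cells), 1.52 CPM in macrophages and under 1 CPM in dendritic, B and T cell clusters. Under 5 CPM in all 10 were 135 members and under 10 CPM were 259, whereas 152 had at least 20 CPM in some other cluster. The highest level of all 12 clusters was in Beige for 396 members, in VSMC for 56 and in VEC for 23. B cells, which should lack beige fat regulation, held 0.16% of their entries in the members, against 1.39% in Beige, 0.526% in Adipocyte and 0.515% in VSMC. Of the members printed with an ERR match, those near Tob2, Rnf7, Ppp4r2 and Map3k1 were more open elsewhere than in Beige, with 78.3 CPM in VSMC, 89.5 CPM in Cd8 T cells, 82.8 CPM in dendritic cells and 125 CPM in B cells.

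The cluster labelled VSMC (vascular smooth muscle cells) shared more members with Beige than any other cluster outside the adipocytes, with 80 members (15.7%) at 20 CPM or above. It held 130.4 CPM at Adssl1, a muscle enzyme gene of purine synthesis, 78.3 CPM at Tob2, 60 CPM at Perm1, 56.1 CPM at Fabp3, 57.4 CPM at Mybpc2, 44.3 CPM at Des and 43 CPM at Cpt1b, the last 3 of which are genes of muscle structure or metabolism. The markers go against the label. The summed level of 9 skeletal muscle markers, of which Mylpf had no peak, was 1434 CPM in this cluster against 97.2 CPM in Beige. The 5 mural markers summed to 136 CPM in VSMC and to 541 CPM in APC2. The markers of APC2 were mixed. All 5 mural markers were highest there, with a sum of 196 CPM in APC1. The 5 progenitor markers summed to 102 CPM in APC2 against 401 CPM in APC1, but also to 231 CPM in Cd8 T cells. Of these, Pdgfra had 58.6 CPM in APC2, 71.3 CPM in APC1 and 29.3 CPM in VEC. The study describes APC2 as progenitors with accessible Pdgfra and mural marker genes. MEF2 matches occurred in 7 (8.75%) of the 80 members, against 5 (3.7%) of the 135 that were under 5 CPM outside the adipocytes. In the same order, ERR matches occurred in 5% and 5.93%, NR4A in 7.5% and 16.3%, C/EBP in 20% and 43% and AP-1 in 25% and 19.3%. Of the 80, 15% were near a gene start, against 2.96% of the 135.

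**Figure D3:**
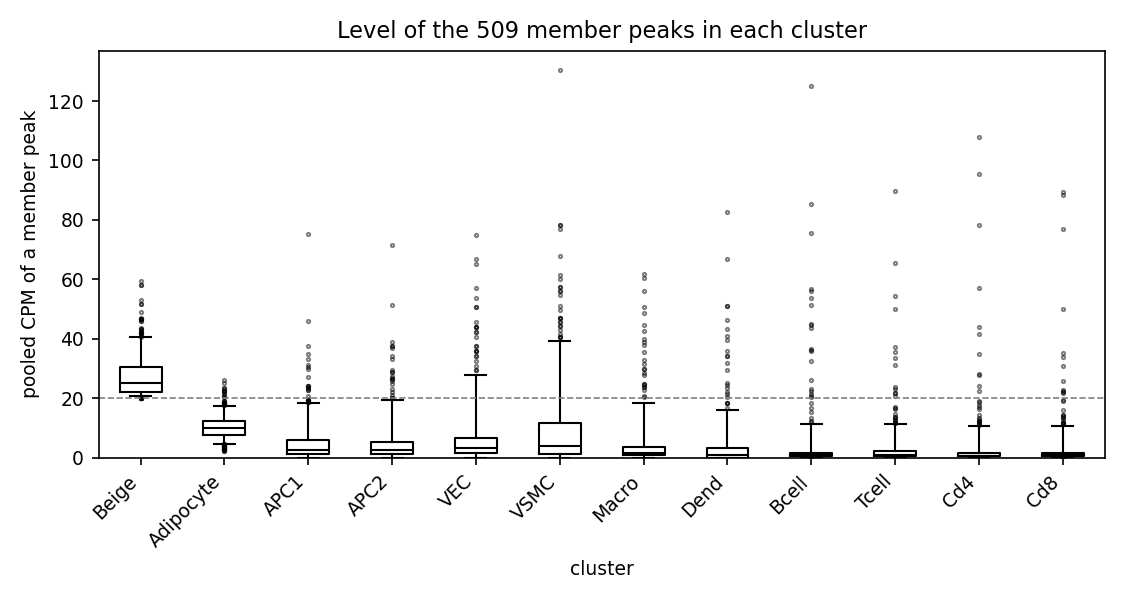
Pooled CPM of the 509 members in each of the 12 annotated clusters, with the median, the quartiles, whiskers at the 5th and 95th percentile and single members beyond. The medians are 25.2 CPM in Beige, 10.1 CPM in Adipocyte and 3.91 CPM or lower elsewhere, and 80 members are at or above the dashed line at 20 CPM in VSMC. Single members reach 125 CPM in B cells.

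White adipocytes of treated mice had more of their entries in the members than those of day0RT mice, and every treated group except day1C lay wholly above day0RT. In day0RT the share was 0.382%, 0.399% and 0.432% in the 3 mice. In day7CL it was 0.541%, 0.585% and 0.642%, and in day3CL 0.565%, 0.577% and 0.585%, so both CL groups stood clear of day0RT. The means were 0.404% ± 0.0253 (SD, n = 3) in day0RT, 0.438% ± 0.0154 in day1C, 0.458% ± 0.0202 in day3C, 0.528% ± 0.0499 in day7C, 0.542% ± 0.0349 in day1CL, 0.576% ± 0.0103 in day3CL and 0.59% ± 0.0507 in day7CL (SD, n = 3 each). Some clusters other than adipocytes also held more in treated mice. In B cells the group means ran from 0.148% in day0RT to 0.175% in day1CL, and day1C (0.164% to 0.173%) and day1CL (0.171% to 0.178%) lay wholly above day0RT (0.142% to 0.159%). In the cluster Tcell the mean was 0.12% in day0RT (0.101% to 0.133%) and 0.157% in day1C (0.154% to 0.159%), a larger relative difference than in white adipocytes on that day. In macrophages it was 0.189% in day0RT (0.168% to 0.204%) and 0.246% in day7CL (0.238% to 0.255%). Their part in the differences of white adipocytes was not tested. The members were picked with these mice included. With peaks picked without the mice of both groups, 650 peaks, the white share was 0.754% ± 0.0708 in day7CL and 0.525% ± 0.0293 in day0RT (SD, n = 3 each), again with no overlap.

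**Figure D4:**
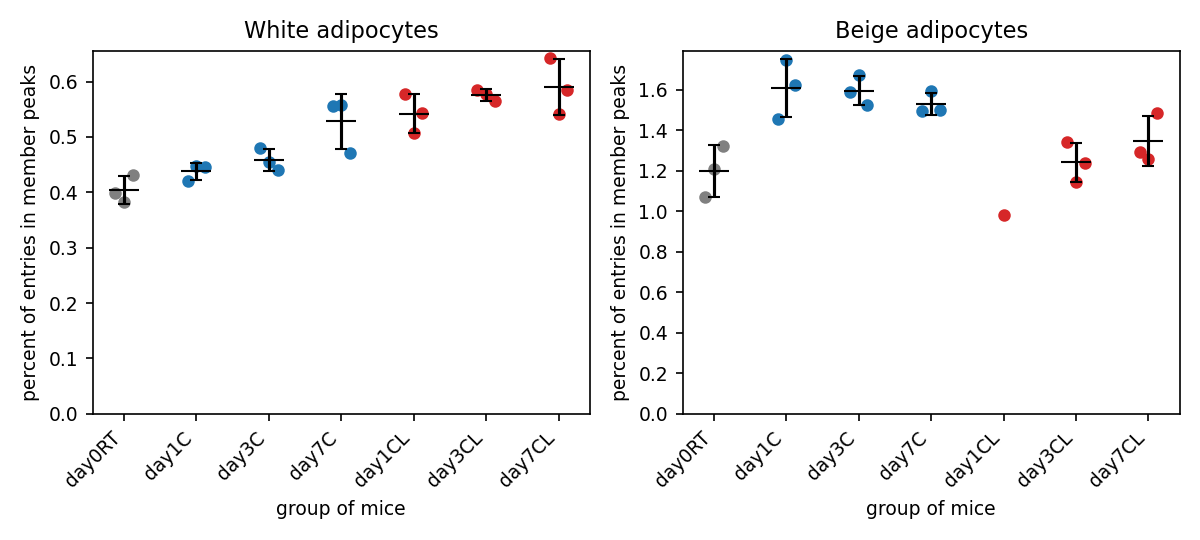
Percent of entries that fall in the 509 members, for each mouse (points) of each group in white (left) and beige adipocytes (right), with the mean and SD of each group as black bars. White day3CL and day7CL mice lie above all day0RT mice, and beige day3CL mice lie below all day3C mice. Beige day1CL is 1 mouse, since the others had fewer than 10 beige nuclei, and the axes differ in scale.

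Single members were tested in white adipocytes with edgeR's quasi-likelihood test over all 90240 peaks with enough entries, with Benjamini-Hochberg adjustment within each comparison, and 506 members were among them. After 7 days of CL, 39 members were called higher and 0 lower than day0RT at an adjusted p under 0.05, beside 0.580% of all tested peaks called higher and 0.555% lower. After 3 days of CL, 31 were called higher and 0 lower (all peaks 0.872% and 0.438%). After 1 day of CL, 4 were called higher and 0 lower (0.162% and 0.269%). DESeq2 called 0 members in each of the 3. With the replicate number as a block, 14 were called for day7CL. Counts under such alternatives take both directions together, and the share of all peaks called under them is not given here. Leaving out 1 mouse gave 0 calls for day7CL without its mouse 1, the deepest of the group with 3146652 entries, and 9, 15 and 1 without day0RT mouse 1, 2 and 3. For day3CL it gave 5 calls without its mouse 2 and 11, 13 and 1 without day0RT mouse 1, 2 and 3, and for day1CL 0 without its mouse 3 and 1 and 0 without day0RT mouse 2 and 3.

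Each set against day0RT, cold had fewer members past the threshold than CL. White adipocytes held 2122496, 5399712 and 2462025 entries in day1C, day3C and day7C, and 1659730, 6004549 and 4824970 in day1CL, day3CL and day7CL. The part of depth in these counts was not tested. The calls were 0 higher and 0 lower for day1C (all peaks 0.0111% and 0.0155%), 1 higher and 0 lower for day3C (0.117% and 0.115%) and 2 higher and 0 lower for day7C (0.0388% and 0.0332%), with 0 by DESeq2 in each. Leaving out any 1 of the day0RT mice gave 0 calls for day3C and day7C, as did leaving out mouse 2 of day3C or mouse 1 of day7C for the comparison it belongs to. Leaving out mouse 3 of day7C gave 1 call for day7C, and leaving out mouse 2 of day1C gave 1 for day1C. At an unadjusted p under 0.05 by edgeR, 30 members were higher and 21 lower for day1C, or 5.93% and 4.15%, near the 3.71% and 3.92% of all tested peaks. For day3C they were 70 and 24, or 13.8% and 4.74%, beside 5.83% and 4.31% of all peaks. For day7C they were 87 and 7, or 17.2% and 1.38%, beside 5.35% and 4.36%, and for day7CL 181 and 8, or 35.8% and 1.58%, beside 7.91% and 6.35%. The median log2 fold change of the 506 members was 0.14 in day1C, 0.24 in day3C, 0.31 in day7C, 0.39 in day1CL, 0.56 in day3CL and 0.62 in day7CL, while that of all tested peaks lay between −0.05 and 0.06. The day1CL median turned to −0.2 without mouse 3 of that group. These comparisons share the day0RT mice, so their values stand side by side and are not independent of each other.

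Set directly against each other, day3CL had 23 members called higher and 1 lower than day3C in white adipocytes (all peaks 0.555% and 0.325%), and day7CL had 0 higher and 0 lower than day7C (0% and 0.00111%). DESeq2 called 0 in both. At an unadjusted p under 0.05, 64 members were higher and 1 lower in day7CL than in day7C by edgeR, or 12.6% and 0.198%, beside 3.36% and 2.34% of all tested peaks. With the replicate number as a block, 16 members were called for day3CL against day3C in either direction, and the share of all peaks is not given. Leaving out 1 mouse gave 2 and 11 calls on day 3 without day3CL mouse 2 and 3, and 3, 11 and 12 without day3C mouse 1, 2 and 3.

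Members near metabolic genes were among those that passed. The Otop1 member had 28.9, 26 and 25 CPM in white adipocytes of day7CL mice and 11.6, 8.86 and 10.7 CPM in day0RT mice. All day7CL values were above all day0RT values, with a log2 fold change of 1.36 (SE 0.32, adjusted p = 0.0115 by edgeR). The same member was higher in day3CL (29.8, 20.3 and 20.1 CPM) than in day3C (12.9, 8.34 and 7.81 CPM), with a log2 fold change of 0.91 (SE 0.23, adjusted p = 0.0199 by edgeR).

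The intronic Elovl6 member had 7.75, 8.86 and 3.9 CPM in day0RT. It had 40.4, 14.9 and 15.2 CPM in day7C, where 1 mouse stood far above the others, and the log2 fold change was 1.9 (SE 0.43, adjusted p = 0.0256 by edgeR). In day7CL it had 19.4, 22.1 and 12.5 CPM, with a log2 fold change of 1.67 (SE 0.41, adjusted p = 0.0149 by edgeR). All 6 treated mice lay above the day0RT mice. The Elovl6 member at the gene start passed in day3CL, with 23.4, 30.6 and 22.4 CPM against 17.4, 2.95 and 8.78 CPM and a log2 fold change of 1.42 (SE 0.32, adjusted p = 0.00542 by edgeR).

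Of the 17 members of fatty acid uptake and oxidation, 2 were called higher and 0 lower in day7CL. Over all 506 tested members 39 were called higher and 0 lower, and over all tested peaks 0.580% and 0.555%. The median log2 fold change of the 17 was 1.27, beside 0.62 over all 506. The summed level of the 17 in white adipocytes was 97.9 ± 5.18 CPM in day0RT, 158 ± 34.9 CPM in day7C and 191 ± 39.1 CPM in day7CL (SD, n = 3 each). The Acsl5 member upstream of the gene had 9.85, 8.66 and 15.7 CPM in day7CL and 0, 2.95 and 2.92 CPM in day0RT, without overlap (adjusted p = 0.0387 by edgeR). The Pank1 member at chr19:34838472-34839023 had 8.9, 2.89 and 7.83 CPM against 1.94, 0 and 0 CPM, few entries in any mouse (adjusted p = 0.0244 by edgeR). The Cpt1b promoter had 14.9, 12.5 and 18.8 CPM against 7.75, 2.95 and 5.85 CPM, which did not overlap but missed the threshold (log2 fold change 1.32, SE 0.44, adjusted p = 0.101 by edgeR).

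Of the 18 members of the thermogenic core, 1 (Otop1) was called higher and 0 lower in day7CL, beside 39 and 0 of all 506. Of all tested peaks 0.580% and 0.555% were called. The median log2 fold change of the 18 was 0.56, beside 0.62 over all 506. None of the 5 Ucp1 members was called in the 8 comparisons of white adipocytes by edgeR. The promoter member had 3.5, 0.962 and 3.13 CPM in day7CL and 1.94, 2.95 and 0.975 CPM in day0RT, and the ranges overlapped (adjusted p = 0.735 by edgeR). Summed over the 5 Ucp1 members, white adipocytes held 25 ± 5.41 CPM in day0RT, 23.7 ± 4.32 CPM in day7C, 26.5 ± 7.53 CPM in day7CL and 48 ± 17.4 CPM in day1CL (SD, n = 3 each), the last resting on 62 entries. The 4 Ppargc1b members likewise summed to between 63.9 and 76.9 CPM in every group.

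Of the other lists, tested members called higher in day7CL numbered 1 of 5 for lipogenesis (Elovl6), 1 of 5 for the tricarboxylic acid cycle and respiratory chain and 0 for the other 5 lists that hold a member, with 0 lower in all of them. The same comparison called 39 of all 506 members higher, and 0.580% of all tested peaks higher and 0.555% lower. In day3CL against day3C the potassium channel gene Kcnk3 had 10.6, 15 and 20.1 CPM against 7.39, 6.95 and 3.9 CPM (log2 fold change 1.31, SE 0.29, adjusted p = 0.0034 by edgeR). Grk3, which desensitises receptors, had 14.9, 13.3 and 12.6 CPM against 5.47, 4.17 and 7.81 CPM (log2 fold change 1.19, SE 0.32, adjusted p = 0.0284 by edgeR). Neither overlapped.

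The members with the lowest p in each comparison were mostly near genes outside the lists. In day7CL they were 2 members near Immp2l, a mitochondrial peptidase gene, and 1 near Gm10309. The first Immp2l member had 16.2, 11.5 and 14.1 CPM against 3.88, 0 and 1.95 CPM in day0RT (log2 fold change 2.72, SE 0.57, adjusted p = 0.00244 by edgeR), and it also passed in day7C with 14.8, 9.94 and 17 CPM (adjusted p = 0.0313 by edgeR). In day3CL they included members near Uchl5 and Plxna1. The Uchl5 member had 10.6, 17.7 and 17.8 CPM against 3.88, 2.95 and 1.95 CPM, with no overlap (log2 fold change 2.64, SE 0.51, adjusted p = 4.7e-04 by edgeR).

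In day3CL against day3C they were near A1bg, Catip and Coq8a, and the call lower in day3CL was near Scnn1b. The member upstream of Coq8a had 17, 23.6 and 22 CPM in day3CL and 10.4, 5.56 and 13.7 CPM in day3C (log2 fold change 1.12, SE 0.24, adjusted p = 0.00179 by edgeR). The Scnn1b member, near a sodium channel subunit gene, overlapped between the groups, with 29.8, 14.7 and 13.6 CPM in day3CL and 22.7, 36.1 and 30.3 CPM in day3C (log2 fold change −0.74, adjusted p = 0.0445 by edgeR). The day3C call against day0RT was near Zc3h3, with 11.8, 32 and 15.6 CPM against 0, 2.95 and 4.88 CPM. In day1CL the calls were near Pzp, Jade1, Gm10309 and Immp2l, all overlapping with day0RT, and mouse 1 of that group had only 44198 white entries.

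**Figure D5:**
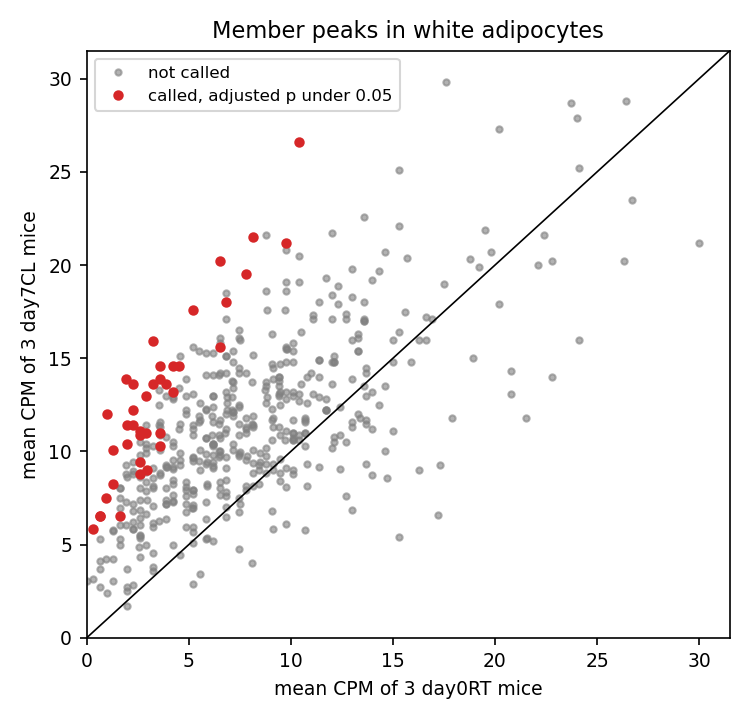
Mean CPM of 3 day7CL mice against mean CPM of 3 day0RT mice in white adipocytes for the 509 members, with the 39 called higher in red and the line of equal levels. Most points lie above the line, and the called members lie at low day0RT levels, from near 0 to 10.4 CPM for Otop1.

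Members under 5 CPM outside the adipocytes had a median log2 fold change of 0.87 in day7CL white adipocytes, with 15 of 133 called higher, while the 80 members shared with the cluster labelled VSMC had 0.5, with 4 called higher. Members near a gene start had a median of 0.34 and those with an ERR match 0.43, with 2 of 45 and 2 of 41 called higher and 0 lower. No test of the difference between these subsets was made. Over all members, 161 had all 3 day7CL values above all 3 day0RT values and 9 had all below, or 31.8% and 1.78%, beside 10.1% and 7.25% of all tested peaks by the same measure and 0.580% and 0.555% called.

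In beige adipocytes the groups rest on few nuclei, from 12 to 107 in a mouse, and 1 entry is worth 51.2 CPM in the shallowest day0RT library of 19550 entries. The share of entries in members was 1.07%, 1.21% and 1.32% in day0RT, with a mean of 1.2% ± 0.127 (SD, n = 3). Cold groups had 1.61% ± 0.145 in day1C, 1.59% ± 0.0728 in day3C and 1.53% ± 0.0539 in day7C, and CL groups 1.24% ± 0.0969 in day3CL and 1.35% ± 0.122 in day7CL (SD, n = 3 each), with 0.983% in the 1 day1CL mouse that had enough nuclei. These shares enter the choice of members directly, and day7C and day7CL gave 25.8% and 24.6% of the Beige entries while day0RT gave 3.83%.

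With peaks picked without the mice of the groups compared, the order held between cold and CL. Beige day3CL mice had 1.21% ± 0.115 and day3C mice 1.52% ± 0.0599 of their entries in 517 such peaks, and day7CL mice had 1.39% ± 0.129 and day7C mice 1.59% ± 0.0482 in 565 (SD, n = 3 each). Neither pair of groups overlapped. Against day0RT, day7C had 1.29% ± 0.0336 and day0RT 1.03% ± 0.0864 in 453 peaks without overlap, whereas day7CL and day0RT overlapped, at 1.54% ± 0.133 and 1.39% ± 0.115 in 650 peaks (SD, n = 3 each).

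The white-side peaks were less open after cold than after CL in the same nuclei. Their summed level in beige adipocytes was 3433 ± 138 CPM in day0RT, 3672 ± 753 CPM in day3CL and 2659 ± 172 CPM in day7CL, but 1769 ± 116 CPM in day3C and 1927 ± 88.7 CPM in day7C (SD, n = 3 each). Their part in the difference between cold and CL was not tested. The white-side peaks were themselves chosen by a low level in the pooled beige nuclei, so these sums enter their choice. Of the Beige entries, day3C gave 18.8%, day7C 25.8%, day3CL 12.8% and day7CL 24.6%. The white-side rule was not repeated without these mice. Among the members, chosen on these same beige nuclei, sums were mostly higher in day3C than in day3CL. The means of all 9 lists that hold a member were higher in day3C, and 3 of the 9 did not overlap. Fatty acid uptake and oxidation summed to 584 ± 18.1 CPM in day3C and 378 ± 47.4 CPM in day3CL, the thermogenic core to 692 ± 25.9 and 478 ± 56.5 CPM, and lipogenesis to 214 ± 40 and 128 ± 33.6 CPM (SD, n = 3 each). In day0RT mice the sums were 432, 512 and 562 CPM, 607, 665 and 807 CPM, and 210, 153 and 57.6 CPM in the same order. Day3CL thus lay wholly below day0RT for fatty acid uptake and oxidation and for the thermogenic core. Of these lists, day3C lay wholly above day0RT only for fatty acid uptake and oxidation. Of the 14 genes with at least 3 members, 11 had a higher mean in day3C, of which Ppargc1b (206 ± 26 against 109 ± 19.5 CPM) and Pank1 (95.1 ± 12.3 against 45.6 ± 23.8 CPM) did not overlap (SD, n = 3 each). The other 3, Nol4l, Parn and Adra1a, had a higher mean in day3CL and overlapped, with 78 against 56.6 CPM at Nol4l. Beige day0RT mice had 175, 205 and 202 CPM at Ppargc1b, above all day3CL mice and overlapping day3C. At Pank1 they had 46.7, 102 and 72 CPM, overlapping both groups. On day 7 the mean was higher in day7C for 8 of the 9 lists, of which 1 did not overlap, and higher in day7CL for nuclear receptors and factors. Of the 14 genes, 12 had a higher mean in day7C, 2 of them without overlap, and 2 in day7CL, of which Coq8a did not overlap. No matching counts were made for lists of other peaks, and lists and genes were not summed over peaks picked without these mice.

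Peak by peak, edgeR called 0 members in beige adipocytes, over 23695 peaks tested with all 509 members among them: 0 higher and 0 lower for day7C against day0RT (all peaks 0% and 0%), for day7CL against day0RT (0% and 0%) and for day7CL against day7C (0.00844% and 0%). DESeq2 called 0 as well. At an unadjusted p under 0.05 by edgeR, 113 members were higher and 1 lower for day7C against day0RT, or 22.2% and 0.196%, beside 8.30% and 0.890% of all tested peaks. For day7CL against day0RT they were 79 and 3, or 15.5% and 0.589%, beside 8.28% and 0.675%, so all peaks leaned the same way in both. For day7CL against day7C they were 4 and 36, or 0.786% and 7.07%, beside 3.44% and 2.41%. The unadjusted counts rest on the TMM scaling of libraries by edgeR and are not given under other scalings. The scaling factor was 2.363 for day0RT mouse 2, the shallowest library, and 0.841 to 1.165 for the other beige libraries. The members were chosen by their level in these same beige nuclei, and all tested peaks were not. Of the Beige entries, day7C gave 25.8%, day7CL 24.6% and day0RT 3.83%. Peaks picked without the mice of both groups gave 0 calls in each comparison. Their median log2 fold change was 0.82 for day7C and 0.68 for day7CL against day0RT, and −0.12 for day7CL against day7C. The median log2 fold change of the members was 0.79 for day7C and 0.70 for day7CL against day0RT, but the median of all tested peaks was shifted by 0.36 and 0.37 in these comparisons, and with library totals as the only scaling the medians were 0.41 and 0.24 for members and −0.02 and −0.09 for all peaks. The Otop1 member shows how far single libraries spread, with 35, 102 and 115 CPM in day0RT, 67.1, 28.6 and 55.5 CPM in day7C and 60, 60.1 and 68 CPM in day7CL. The day0RT libraries held only 85731, 19550 and 69433 entries in all peaks, so counting error is part of this spread. The ranges overlapped for both treatments.

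Within each group, the share of entries in members was higher in beige than in white adipocytes on the mean of mice. The choice was made over all groups pooled, which favours this without fixing it in each group. The share in beige over that in white was 2.97 in day0RT, 3.67 in day1C, 3.48 in day3C, 2.9 in day7C, 1.81 in day1CL, 2.16 in day3CL and 2.28 in day7CL. Of the 509 members, 443 were higher in beige in day0RT, 509 in day7C and 508 in day7CL, and 419 in day1CL, where beige is 1 mouse. Of the Beige entries used by the choice, day7C gave 25.8%, day7CL 24.6% and day0RT 3.83%. The counts for day7C and day7CL thus largely restate the choice. The same counts over all peaks, or over peaks picked without the group, are not given here.

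Depth differed between mice, with 1340376 to 6916698 entries per mouse over all clusters, 44198 to 3655538 in white adipocytes and 19550 to 717044 in beige adipocytes. The median entries per nucleus of white adipocytes ran from 1342 to 2695 in day0RT mice and from 1787 to 6755 in day7CL mice. With only nuclei of at least 2000 entries, 28 members were called higher in day7CL than in day0RT, beside 39 with all nuclei. The median log2 fold change was then 0.67, beside 0.62 with all nuclei. The share of all peaks called among the deeper nuclei is not given, so the count does not tell members from other peaks. Mice are the replicates. The p-values rest on the spread among mice within groups, estimated in 1 fit over all groups of the cluster and not from the 3 mice of a group alone. The clusters were named by the authors from the same matrix, so levels between clusters are not independent of the names.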

How the data were processed

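Inguinal adipose nuclei of 21 mice were profiled by combinatorial single-nucleus ATAC-seq. The authors aligned reads to mm10 with Bowtie2, removed low-quality alignments and duplicates within a barcode, called peaks per initial cluster with MACS2, merged them, and removed nuclei with few reads, few reads in peaks or a high doublet score, so no doublet caller was run here. The deposited matrix holds counts of 0 or 1 per peak and nucleus (145 stored zeros, no value above 1), so a sum over nuclei is the number of nuclei open at a peak, and differences at widely open peaks are flattened. Peak coordinates are printed as deposited, and their starts appear to count from 0.

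Entries were summed per cluster and, with mice as replicates, per mouse and adipocyte cluster, for libraries of at least 10 nuclei. Peaks with a mean of at least 3 entries per library were tested with edgeR 4.0.16 (quasi-likelihood, robust, TMM, all groups of the cluster in 1 fit) in R 4.3.3. The tests were two-sided, and p-values were adjusted by Benjamini-Hochberg over all tested peaks of a comparison. DESeq2 1.42.0 was the other tool. The edgeR step was tested on simulated data. Nearest genes are GENCODE vM21 protein-coding genes, and consensus sequences were searched on both strands of GRCm38 (RefSeq) in Python 3.11.15.

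The members, gene lists and tests were chosen with earlier results of these data known. Named are the 10 members with the highest Beige level and the 10 with the highest ratio, the genes with most members, members near genes of the 10 lists, and for each comparison the 3 called members with the lowest p in each direction; other called members named by gene come from the lists. A few members that this rule would name are not reported here. Alternatives were other scalings, filters and rule limits, the 2 compared groups alone, the replicate number as a block, deeper nuclei, and leaving out mice.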

Additional observations from a re-analysis of the deposited data

Results flagged for a closer look

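After 3 days, CL and cold differed in opposite directions in the adipocyte clusters. In white adipocytes the share of entries in the 509 members was 1.26 times as high in day3CL (0.576% ± 0.0103) as in day3C (0.458% ± 0.0202; SD, n = 3 each), and all day3CL mice lay above all day3C mice. In beige adipocytes it was 0.779 times as high (1.24% ± 0.0969 against 1.59% ± 0.0728; SD, n = 3 each), and all day3CL mice lay below all day3C mice. The difference between the clusters was not tested. On day 7 the beige mice did not overlap either, at a ratio of 0.88, while the white mice overlapped, at 1.12. The members were chosen with all these mice included. With peaks picked without the mice of both groups, day3CL over day3C was 0.798 in beige and 1.26 in white adipocytes, and neither pair overlapped. For day7CL over day7C it was 0.873 in beige adipocytes without overlap and 1.1 in white adipocytes with overlap.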

How the results depend on the processing

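The number of members followed the limits of the rule: 2446 with at least 10 CPM in Beige, 28 with at least 40 CPM, 1373 at 1.5 times and 156 at 3 times the white level, 657 with the mean over mice of each mouse's CPM (403 of them among the 509), and 444 to 622 when 1 mouse was left out of the pools. DESeq2 called 0 members in white adipocytes for day3C, day7C, day1CL, day3CL and day7CL against day0RT and for day3CL against day3C, and the cause was not tested. Counts of calls in this section take both directions together, and the share of all peaks called under each alternative is not given. The counts therefore do not tell whether members lost or gained calls more than other peaks did. With RLE scaling 2 members were called for day3C and 7 for day1CL, and with library totals alone 3 and 7. Without a filter on low counts, which tests more peaks, the calls were 0 for day7C, 0 for day1CL, 19 for day3CL, 16 for day7CL and 8 for day3CL against day3C. With a mean of at least 10 entries they were 1 for day1C, 5 for day3C, 4 for day7C and 11 for day1CL, and with filterByExpr 1, 4, 4 and 9. With nuclei of at least 2000 entries they were 0 for day7C, 1 for day1CL and 20 for day3CL. Peaks picked without the mice of both groups gave 1 call for day7C. Leaving out 1 mouse in turn gave 0 to 1 calls for day1C, 0 to 1 for day3C, 0 to 2 for day7C, 0 to 4 for day1CL, 1 to 37 for day3CL, 0 to 42 for day7CL, 2 to 25 for day3CL against day3C and 0 to 0 for day7CL against day7C, and in beige adipocytes 0 to 0 for day7C and for day7CL against day0RT and 0 to 1 for day7CL against day7C. With 2 mice left in a group, the fit still pools the spread over all groups. The median log2 fold change of the members stayed above 0 in white adipocytes in all of these settings except for day1CL, where leaving out 1 mouse gave −0.2 to 0.58. The share of members near a gene start was 5.89% within 1000 bases. In beige adipocytes the medians against day0RT ran from 0.18 to 1.38 for day7C and from 0 to 1.2 for day7CL over the scalings and filters, with 0 calls in each.

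Same-numbered mice of different groups showed no clear shared deviation (correlations −0.07 to 0.13 over 63 pairs, median 0, 1 of them above 0.1). These correlations used peaks with a mean of at least 10 entries, where counting error could hide a modest shared effect. Nothing in the labels ties the mice, so the numbers were not taken as pairs in the main tests. The study mentions 3 independent batches, as many as the 3 mice of each group, without saying which mice each held. Whether the replicate numbers mark the batches is not given in the sources used here. With the replicate number as a block, 14 members were called for day7CL against day0RT, 25 for day3CL, and 16 for day3CL against day3C.

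At most 107 beige nuclei per mouse limit single peaks in beige adipocytes, where 1 entry is worth up to 51.2 CPM.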
